A study of Mus musculus with 22 samples.

Results

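The genes described here are 10 genes of DNA replication and nucleotide synthesis: the replicative helicase subunits Mcm2, Mcm3, Mcm4, Mcm5, Mcm6 and Mcm7, the sliding clamp Pcna, the ribonucleotide reductase subunits Rrm1 and Rrm2, and thymidylate synthase, Tyms. They were taken by symbol from tables that list 52526 distinct gene symbols, as a set named for its function, and earlier results of these data were known when it was chosen. RNA was measured in mammary tissue of 22 female C57BL/6J mice aged 7 to 8 weeks, with 1 mouse per sample and a single experiment. For 2 weeks the mice lived with a running wheel (wheel-running mice) or with the hub of the wheel alone (sedentary control mice). The fat pad on the left side then received 100000 EO771 cells, a mammary cancer line of the same strain that carried firefly luciferase, and the tissue was taken 24 h later. Liposomes filled with PBS or with clodronate, which kills the phagocytes that take it up, were injected intravenously 24 h before engraftment and again at engraftment. The groups were 6 control mice with PBS liposomes, 6 wheel-running mice with PBS liposomes, 5 control mice with clodronate liposomes and 5 wheel-running mice with clodronate liposomes, so every mouse carried cancer cells and had received liposomes. Host tissue and engrafted cells were not separated.

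Before a cell copies its DNA, Mcm2 to Mcm7 are loaded onto replication origins as a ring, and in S phase this ring becomes the motor that unwinds the double strand. Pcna encircles the DNA behind the fork and holds the polymerases in place, while ribonucleotide reductase (a large subunit, Rrm1, and a small subunit, Rrm2) and thymidylate synthase supply the deoxynucleotides. Transcription of most of these genes rises as cells enter the cycle under E2F transcription factors, so their RNA is widely read as a sign of dividing cells. In whole tissue, fewer dividing cells and less RNA per dividing cell cannot be told apart.

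The values are CPM, read counts scaled to the total of all reads of a library, from a protocol that reads the 3′ end of each transcript, so that a level does not grow with transcript length. Every value under 1 CPM had been set to 1, called the floor here, which hid at most 13 to 20 reads per gene and mouse. Libraries held 13256467 to 20484578 reads. All 10 genes were above the floor in at least 5 mice, the rule that kept 15138 genes for testing. Markers of adipocytes, the main cells of the fat pad, were present in every mouse, with 8 markers summing to 7509 to 22265 CPM. Of the libraries, 5 stood apart by their lymphocyte markers: the mean log2(CPM + 1) of 18 B cell and T cell markers was 3.98 to 5.51 in control mouse 2 and wheel-running mouse 3 with PBS liposomes and in wheel-running mice 3, 4 and 5 with clodronate liposomes, and 1.01 to 1.34 in the other 17 mice. The 9 B cell markers summed to 9 to 206 CPM in control mice and 9 to 253 CPM in wheel-running mice with PBS liposomes, against 9 to 9.95 CPM in control mice and 10.3 to 714 CPM in wheel-running mice with clodronate liposomes, where 9 CPM means that all 9 were at the floor. The comparisons of groups by limma are given with and without these 5 libraries. The wheel-running mice with clodronate liposomes also had the lowest median share of reads assigned to genes, which was 57.4 to 58.6% in that group, 58.8 to 63.2% in control mice with clodronate liposomes, 58.5 to 63.9% in wheel-running mice and 60.5 to 64.6% in control mice with PBS liposomes.

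The promoters of 4 helicase genes are shown because each held at least 1 of a set of E2F words. RefSeq promoter windows (GRCm38.p6, 250 bases before to 50 bases after the start site) were found for 9 of the 10 genes, all but Mcm4, with a pair of windows for Mcm7. Both strands were searched for 4 E2F words, TTTCCCGC, TTTCGCGC, TTTGCCGC and TTTGGCGC. A match was present in 4 of the 9 genes (Mcm3, Mcm5, Mcm6 and Mcm7), against 2.26% of 32851 promoters of the same length. Each of these 4 genes had more than 1 match in its window, which 0.0974% of all promoters had. The windows of Mcm2, Pcna, Rrm1, Rrm2 and Tyms held none of these exact words. The 4 windows with a match are printed 5′ to 3′ on the strand of the gene, with E2F matches on either strand in capitals.
Mcm3, chr1:20820263-20820562, minus strand: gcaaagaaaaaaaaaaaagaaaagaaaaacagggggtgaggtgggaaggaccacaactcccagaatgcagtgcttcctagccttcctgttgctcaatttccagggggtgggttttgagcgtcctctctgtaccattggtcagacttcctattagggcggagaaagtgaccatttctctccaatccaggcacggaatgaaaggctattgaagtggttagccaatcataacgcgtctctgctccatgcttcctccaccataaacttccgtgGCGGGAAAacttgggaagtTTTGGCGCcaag
Mcm5, chr8:75109259-75109558, plus strand: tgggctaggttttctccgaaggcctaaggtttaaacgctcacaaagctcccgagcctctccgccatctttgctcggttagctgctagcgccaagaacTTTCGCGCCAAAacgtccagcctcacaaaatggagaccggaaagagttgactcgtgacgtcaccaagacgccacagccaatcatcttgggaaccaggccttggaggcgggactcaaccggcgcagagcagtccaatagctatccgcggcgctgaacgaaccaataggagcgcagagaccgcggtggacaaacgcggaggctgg
Mcm6, chr1:128359656-128359955, minus strand: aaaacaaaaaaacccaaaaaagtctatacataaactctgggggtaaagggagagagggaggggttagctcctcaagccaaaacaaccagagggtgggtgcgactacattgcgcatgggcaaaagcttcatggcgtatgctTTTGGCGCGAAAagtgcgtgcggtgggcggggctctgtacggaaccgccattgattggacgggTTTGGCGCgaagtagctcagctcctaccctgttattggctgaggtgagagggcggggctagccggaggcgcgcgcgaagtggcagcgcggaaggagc
Mcm7, chr5:138171834-138172133, minus strand: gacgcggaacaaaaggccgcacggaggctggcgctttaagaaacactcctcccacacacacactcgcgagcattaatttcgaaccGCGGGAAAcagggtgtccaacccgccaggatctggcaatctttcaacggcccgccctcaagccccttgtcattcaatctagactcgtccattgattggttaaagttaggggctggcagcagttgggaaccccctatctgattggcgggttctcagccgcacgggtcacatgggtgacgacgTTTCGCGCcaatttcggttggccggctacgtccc

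In Mcm5 and in Mcm6 a match on one strand overlapped a match on the other, which gives a single longer run of capitals. The matches lay from 165 bases upstream of the start site (Mcm7) to 39 bases downstream of it (Mcm3). The word CCAAT, bound by NF-Y, was in the windows of 8 of the 9 genes (all but Tyms) against 37.4% of all promoters, and in Mcm7 one CCAAT shared its first base with an E2F match. The GC box GGGCGG was in 7 of the 9 genes against 35.7% of all promoters. The word TTTGAA, known from promoters of genes of mitosis, was in 1 of the 9, Mcm2, against 17.9%. These are matches of letters, not measured binding.

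Mcm7 (chr5:138164583-138172422, GRCm38, minus strand) was the most abundant helicase gene. Its CPM was 13.7 to 45.9 (median 32.2) in control mice and 17.2 to 45.7 (median 24.5) in wheel-running mice with PBS liposomes. With clodronate liposomes it was 26.0, 27.7, 23.3, 22.2 and 30.7 CPM in control mice 1 to 5 and 24.5, 28.4, 45.9, 36.6 and 44.8 CPM in wheel-running mice 1 to 5. The 3 highest values of the last group were those of its lymphocyte-rich mice. Within single mice, Mcm7 was the highest of the 6 helicase subunits in 17 of 22 mice, Mcm3 in 4 and Mcm6 in 1. Its level is uncertain for 2 reasons. The 3′ end of Mcm7 lies under Cops6 on the opposite strand, with 64 bases in common, and whether the counting used strand is not given in the sources used here. The pseudogene Gm5487 matches the last 400 bases of Mcm7 at 98.8% identity.

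Mcm3 (chr1:20802968-20820312, minus strand) and Mcm6 (chr1:128331590-128359664, minus strand) came next, at a mean of 21.9 and 18.2 CPM over all mice. Mcm3 spanned 3.86 to 38.4 CPM (median 30.8) in control mice and 5.60 to 38.0 CPM (median 12.1) in wheel-running mice with PBS liposomes, and with clodronate liposomes 6.86 to 38.0 CPM in control mice and 10.3 to 43.9 CPM in wheel-running mice. Every group held mice with low and mice with high Mcm3, and the 4 ranges overlapped. Mcm6 varied less, from 9.76 to 30.0 CPM in 21 mice, and fell outside that range only in wheel-running mouse 2 with clodronate liposomes, at 2.94 CPM. Mcm2 (chr6:88883474-88898780, minus strand) had 2.34 to 26.3 CPM and Mcm4 (chr16:15623897-15637400, minus strand) 3.81 to 24.4 CPM over the 22 mice.

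Mcm4 and Mcm5, the genes with an unadjusted limma p under 0.05 in at least 1 comparison of groups with all mice, are given mouse by mouse. Mcm4 was 16.6, 15.5, 10.0, 9.01, 12.3 and 17.5 CPM in control mice 1 to 6 and 7.03, 8.02, 6.99, 24.4, 8.28 and 9.64 CPM in wheel-running mice 1 to 6 with PBS liposomes. With clodronate liposomes it was 3.81, 10.4, 15.3, 5.44 and 7.62 CPM in control mice 1 to 5 and 12.3, 10.4, 15.3, 16.2 and 19.1 CPM in wheel-running mice 1 to 5. With PBS liposomes, 4 of the 6 wheel-running mice lay below the lowest control mouse and wheel-running mouse 4 lay above all controls. With clodronate liposomes, control mice 1, 4 and 5 lay below every wheel-running mouse, and control mouse 2 was level with the lowest of them. Mcm5 (chr8:75109569-75128439, plus strand) was 16.6, 17.7, 10.6, 15.2, 3.74 and 18.6 CPM in control mice 1 to 6 and 2.15, 3.50, 5.71, 14.9, 15.5 and 2.21 CPM in wheel-running mice 1 to 6 with PBS liposomes. With clodronate liposomes it was 2.93, 4.51, 13.4, 2.16 and 6.03 CPM in control mice 1 to 5 and 8.20, 5.18, 15.9, 10.3 and 9.96 CPM in wheel-running mice 1 to 5. The 6 control mice with PBS liposomes had 1 low mouse, and the 6 wheel-running mice had 4 low and 2 high ones. The lowest Mcm5 value rests on 30 reads, with an exact Poisson 95% interval of 1.45 to 3.07 CPM, and the highest on 334 reads (16.7 to 20.7 CPM), and these 2 intervals do not overlap. The other mice lay between them. These intervals cover counting error only. A match of 55 bases to Gm45833, itself at the floor in every mouse, was found in the last 400 bases of Mcm5. Whether reads that fit both genes were left uncounted was not tested.

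**Figure D1:**
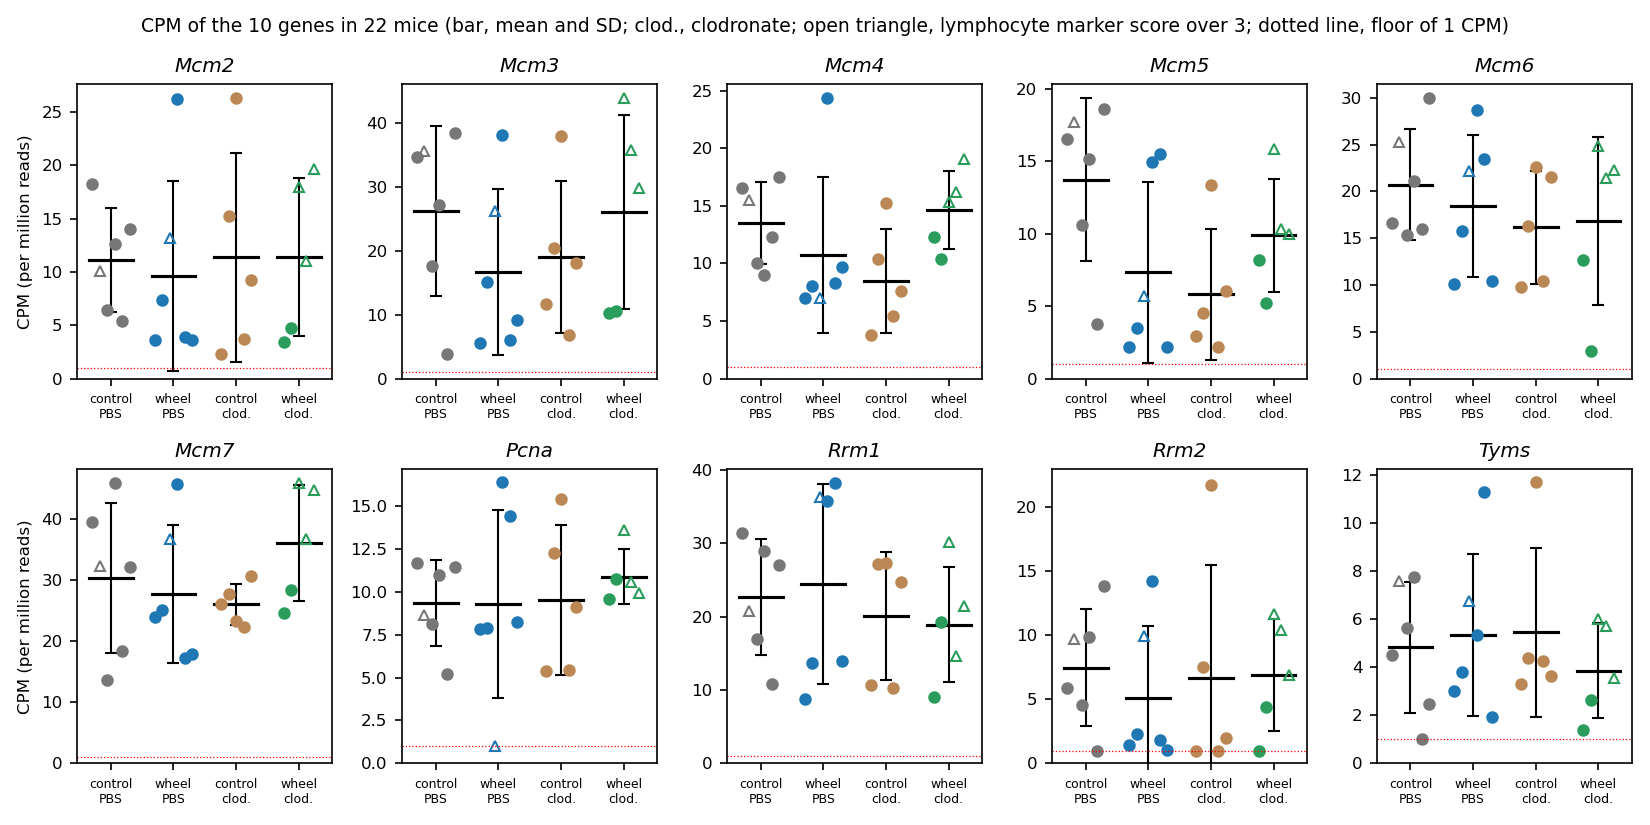
CPM of each gene (vertical axis, starting at 0) in each mouse of the 4 groups, with the group mean and SD (n = 6, 6, 5 and 5) as bars and the 5 mice with a lymphocyte marker score over 3 as open triangles. Low and high mice occur in every group for Mcm2, Mcm3, Rrm1 and Rrm2, and Pcna was at the floor in a single mouse.

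The subunits did not keep a fixed ratio. Summed over the 6 subunits, the helicase genes had 116 ± 38.7 CPM (SD, n = 6) in control mice and 90.6 ± 47.8 CPM (n = 6) in wheel-running mice with PBS liposomes, and 86.8 ± 35.4 CPM (n = 5) in control mice and 115 ± 45.5 CPM (n = 5) in clodronate-treated wheel-running mice. The differences between these means were smaller than the larger SD of each pair. In the last group the 3 lymphocyte-rich mice had sums of 164, 131 and 146 CPM and the other 2 had 71.4 and 62.2 CPM, under the mean of the control mice. Of the sum, the median share over the mice was 30.8% for Mcm7, 20.6% for Mcm3, 18.1% for Mcm6, 11.5% for Mcm4, 9.14% for Mcm2 and 8.10% for Mcm5. Mcm5 was the lowest subunit in 12 of 22 mice. The ratio of the highest to the lowest subunit within a mouse was 2.39 to 11.1, although the subunits assemble into one ring.

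Pcna (chr2:132249162-132253314, minus strand) had the smallest relative spread within groups of the genes outside the helicase, with a coefficient of variation of 39.8%. It was 5.18 to 11.7 CPM (median 9.83) in control mice with PBS liposomes. Wheel-running mice 1 to 6 with PBS liposomes had 7.82, 7.90, 1.00, 16.4, 14.4 and 8.23 CPM. With clodronate liposomes it was 5.37, 12.3, 15.4, 5.44 and 9.13 CPM in control mice 1 to 5 and 9.57, 10.8, 13.6, 10.6 and 9.91 CPM in wheel-running mice 1 to 5. The value of 1.00 is the floor, at most 13 reads of 13314092, in a lymphocyte-rich mouse whose Rrm1, at 36.4 CPM, was the second highest of its group. No other mouse was under 5.18 CPM.

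The large subunit of ribonucleotide reductase varied less than the small one, with coefficients of variation within groups of 46.0% for Rrm1 and 92.4% for Rrm2. Rrm1 (chr7:102441695-102469771, plus strand) was above the floor in every mouse, at 8.83 to 38.3 CPM. Rrm2 (chr12:24708241-24714146, plus strand), the subunit whose RNA is tied most closely to S phase, was at the floor in 4 mice and reached 21.8 CPM in another. In control mice 1 to 6 with PBS liposomes Rrm2 was 5.91, 9.69, 4.52, 9.83, 1.00 and 13.8 CPM, and in wheel-running mice 1 to 6 it was 1.44, 2.29, 9.91, 14.2, 1.83 and 1.02 CPM. With clodronate liposomes it was 1.00, 7.50, 21.8, 1.00 and 1.96 CPM in control mice 1 to 5 and 1.00, 4.41, 11.7, 10.5 and 6.93 CPM in wheel-running mice 1 to 5. Of the 6 wheel-running mice with PBS liposomes 4 were under 2.3 CPM, whereas a single control mouse was. In the 18 mice with Rrm2 above the floor the ratio of Rrm1 to Rrm2 ran from 1.25 to 20.9 (median 3.64). A match of 193 bases to the pseudogene Gm48445 makes Rrm2 levels less certain.

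Tyms (chr5:30058202-30073617, minus strand) was the least abundant of the genes, with a mean of 4.90 CPM and a range from the floor to 11.7 CPM. Its group means were 4.83 ± 2.74 CPM (SD, n = 6) in control mice and 5.35 ± 3.37 CPM (n = 6) in wheel-running mice with PBS liposomes, and 5.46 ± 3.53 CPM (n = 5) in control mice and 3.86 ± 1.99 CPM (n = 5) in clodronate-treated wheel-running mice. The copy Tyms-ps, which shares 154 bases with it, was at the floor in every mouse. Whether reads that fit both Tyms and its copy were left uncounted was not tested.

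Between mice of one group these genes varied more than most. The SD of log2(CPM + 1) within groups had a median of 0.71 over the 10 genes, against 0.46 over all 15138 genes tested, and ran from 0.49 (Mcm7) to 1.22 (Rrm2). Counting error made up 0.778% (Mcm3) to 4.13% (Pcna) of the variance in CPM within groups. The rest of the variance lay between mice or their samples.

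**Figure D2:**
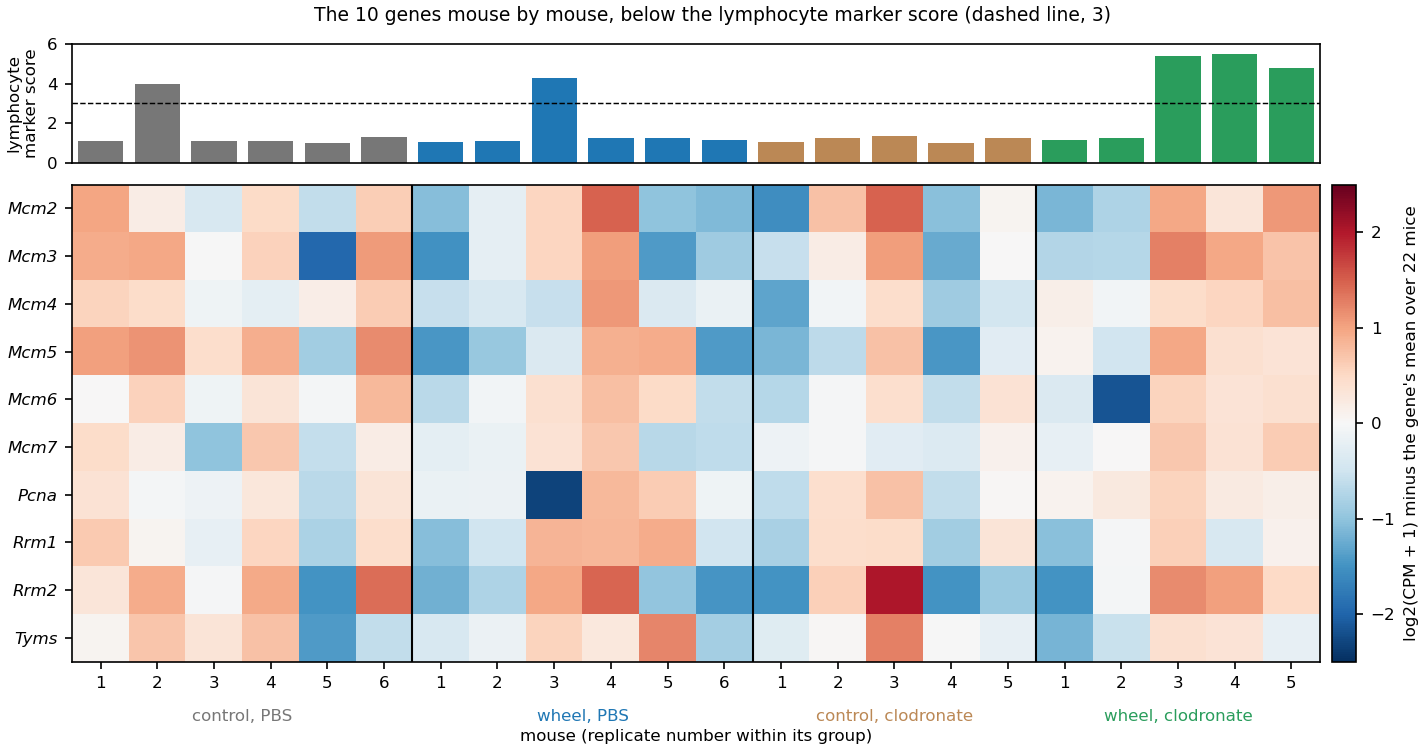
Log2(CPM + 1) of each gene minus its mean over the 22 mice (colour), with 1 column per mouse, below a bar for the lymphocyte marker score of that mouse. Columns tend to be red or blue as a whole, as in wheel-running mouse 4 with PBS liposomes and control mouse 3 with clodronate liposomes (high) or control mouse 5 with PBS liposomes (low), and mice of both kinds are found in several groups.

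The effect of wheel running without clodronate was addressed by setting wheel-running against control mice with PBS liposomes. Wheel-running mice had the lower estimate for 9 of the 10 genes, all but Tyms, and none passed the test. By limma on log2(CPM + 1), with adjustment over all genes, 0 of 10 genes were called, as were 0 of all 15138 genes (0%), and at an unadjusted p under 0.05 it was 1 of 10 against 4.91% of all genes. That gene was Mcm5, at -1.03 ± 0.46 (log2 change ± SE, unadjusted p = 0.0366, limma adjusted p = 0.988), or 0.491-fold on the CPM + 1 scale. Without the 5 lymphocyte-rich mice its estimate was -0.94, with an unadjusted limma p of 0.114, and 0 of 10 were under 0.05, against 4.14% of all genes. The count was also 0 without any 1 of 7 single mice (control mouse 1, 2, 4 or 6 or wheel-running mouse 1, 2 or 6), against 3.89 to 5.32% of all genes. Rrm2 (-0.68, 95% interval -2.02 to 0.65) and Mcm3 (-0.67, -1.77 to 0.43) had the next lowest estimates, and Rrm1 the smallest (-0.02, -0.79 to 0.75). The median over the 10 genes was -0.32, beside -0.08 over all genes tested, of which 63.8% were lower. The 95% interval of Mcm5 was -1.98 to -0.07 and those of the other 9 genes included 0 and reached down to between -0.65 (Mcm7) and -2.02 (Rrm2), so lower levels are not shown and equal levels are not shown either.

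With clodronate liposomes 7 of the 10 genes had a higher estimate in wheel-running than in control mice, against 50.6% of all genes. None of the 10 passed. The counts were 0 of 10 by limma's adjusted p, against 0.00661% of all genes, and 1 of 10 at an unadjusted p under 0.05, against 10.4% of all genes. Mcm4 differed by 0.82 ± 0.33 (log2 change ± SE, unadjusted p = 0.0222, limma adjusted p = 0.357), or 1.77-fold on the CPM + 1 scale, with a 95% interval of 0.13 to 1.51. Mcm5 had nearly the same estimate with a wider error (0.82 ± 0.51, limma adjusted p = 0.623). Tyms had the lowest (-0.39, 95% interval -1.31 to 0.53), which ran from -0.55 to -0.12 when 1 mouse at a time was left out. The median over the genes was 0.34, beside 0.0045 over all genes. Scaled to the reads assigned to genes, a share that does not overlap between these groups, the median was 0.41. This direction turned when the lymphocyte-rich libraries, 3 of the 5 wheel-running mice of this comparison, were left out. Their macrophage markers also summed to more, at 667, 544 and 648 CPM against 242 and 265 CPM in the other 2. The cause of the turn was not tested. Without the lymphocyte-rich libraries, with 2 wheel-running mice left, the median was -0.48 with 6 genes lower and 4 higher, while 55.8% of all genes were lower. With the marker score as a covariate the median was -0.54. Tyms moved to -1.01 without them. Mcm4 kept its sign without them, at 0.50, and was no longer under an unadjusted p of 0.05. With control mouse 1, control mouse 4 or wheel-running mouse 5 alone left out, 0 of 10 were, against 10.8%, 9.54% and 8.57% of all genes. Without the lymphocyte-rich mice Mcm6 had an unadjusted limma p under 0.05, at -1.15 (1 of 10, against 6.35% of all genes). Wheel-running mouse 2, the mouse with the lowest Mcm6, was 1 of the 2 wheel-running mice left. Its 7 skeletal muscle markers summed to 11218 CPM, against 442 CPM in wheel-running mouse 1 and 25106 CPM in control mouse 2. The part of muscle in this estimate was not tested.

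**Figure D3:**
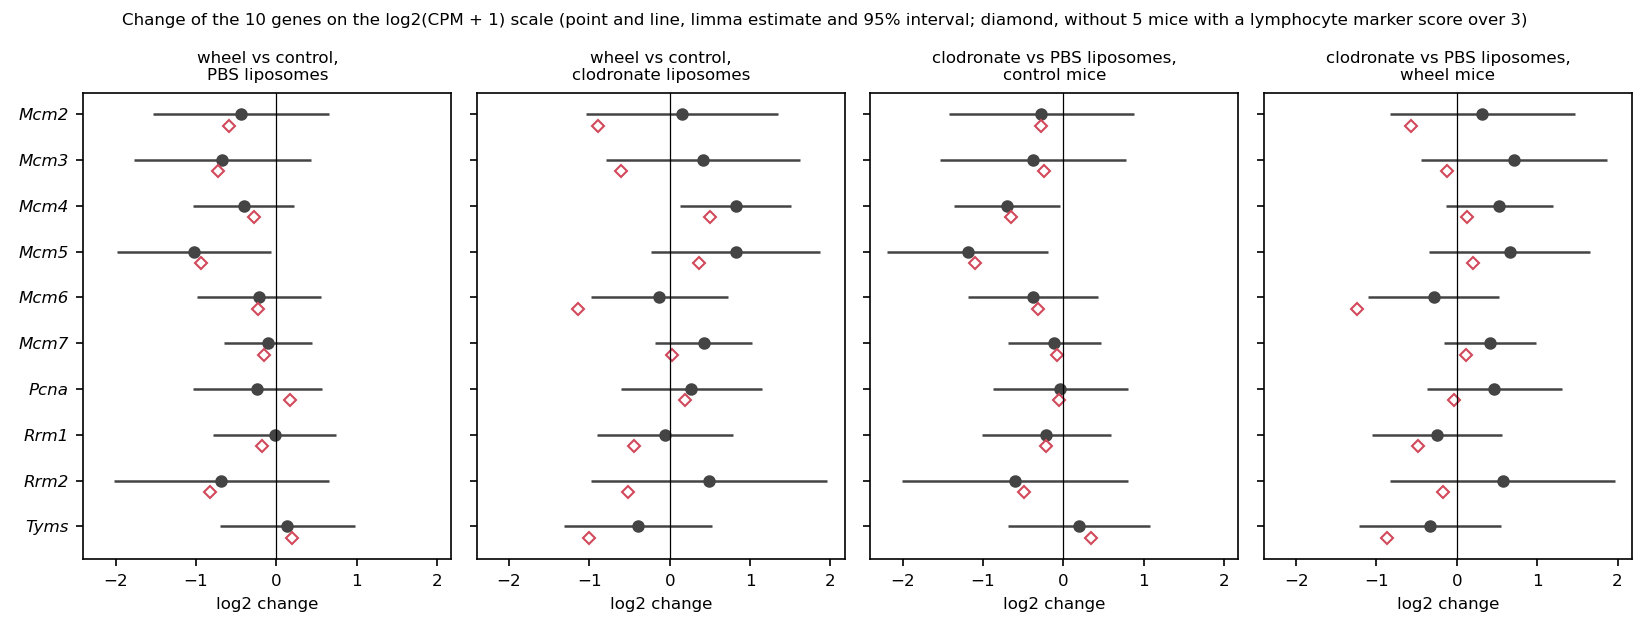
Log2 change of each gene (points) with its 95% interval (lines) in the 4 comparisons of groups by limma, and the estimate without the 5 lymphocyte-rich mice (open diamonds). Most intervals cross 0, and the diamonds lie left of the points for 10 of 10 genes in both comparisons with the group that had wheels and clodronate liposomes.

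Clodronate was set against PBS liposomes first among control mice. The estimates of 9 of the 10 genes were lower with clodronate, again with Tyms as the exception. None passed limma's adjusted p, against 0% of all genes, and 2 of 10 had an unadjusted p under 0.05, against 6.99% of all genes. These were Mcm5, at -1.19 ± 0.49 (unadjusted p = 0.0222, limma adjusted p = 0.656), and Mcm4, at -0.70 ± 0.32 (unadjusted p = 0.0395, limma adjusted p = 0.687). Without the 5 lymphocyte-rich mice 0 of 10 had such a p, against 6.68% of all genes, with estimates of -1.09 for Mcm5 and -0.66 for Mcm4. With the replicate number as a block 1 of 10 had, against 5.91%. Without clodronate-treated control mouse 1 or 4, 0 of 10 had, against 8.44% and 8.51% of all genes. Pcna had the estimate nearest to 0 (-0.04, 95% interval -0.88 to 0.80). The median was -0.32, beside -0.10 over all genes, of which 65.4% were lower. The control mice with PBS liposomes are shared with the first comparison, so their high Mcm5 enters both estimates, -1.03 for wheel running and -1.19 for clodronate. Markers of macrophages, the cells clodronate is used to remove, overlapped between these groups, with 10 markers summing to 249 to 615 CPM with PBS and 253 to 359 CPM with clodronate liposomes (medians 435 and 321), and their part in the result was not tested.

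Among wheel-running mice, clodronate liposomes went with higher estimates in 7 of the 10 genes, against 50.1% of all genes. None passed limma's adjusted p, against 0.00661% of all genes, and none had an unadjusted p under 0.05, against 11.6% of all genes. The highest estimates were those of Mcm3 (0.71, 95% interval -0.45 to 1.87), Mcm5 (0.66, -0.35 to 1.66) and Rrm2 (0.57, -0.83 to 1.97). The median was 0.44, beside 0.0002 over all genes. Without the 5 lymphocyte-rich mice only 2 clodronate-treated wheel-running mice were left. The median was then -0.14 and 7 of the 10 genes were lower, against 58.9% of all genes. Mcm3 turned to -0.12, and Mcm6, at -1.24, was the 1 gene of 10 with an unadjusted limma p under 0.05, against 8.86% of all genes in that fit. Mcm6 was 12.7 and 2.94 CPM in the 2 clodronate-treated mice left, so its estimate leans on 1 mouse. The macrophage markers summed to 240 to 555 CPM with PBS and 242 to 667 CPM with clodronate liposomes. With clodronate the 3 lymphocyte-rich mice had 667, 544 and 648 CPM and the other 2 had 242 and 265 CPM, and without the lymphocyte-rich mouse the PBS group had 240 to 503 CPM. The part of these markers in the result was not tested.

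Whether the effect of the wheel differed with the liposome was tested as an interaction, the wheel difference with clodronate minus that with PBS liposomes. Of the 10 genes 8 had a positive estimate, against 59.2% of all genes, 0 passed limma's adjusted p, against 0% of all genes, and 2 had an unadjusted p under 0.05, against 7.58% of all genes. Mcm5 differed by 1.85 ± 0.69 (unadjusted p = 0.0130, limma adjusted p = 0.619) and Mcm4 by 1.23 ± 0.45 (unadjusted p = 0.0125, limma adjusted p = 0.619). Without the lymphocyte-rich mice these were 1.3 and 0.78, 0 of 10 had an unadjusted p under 0.05, against 4.19% of all genes, and the median over the 10 genes fell from 0.56 to 0.07. Averaged over liposomes, wheel running gave a median of -0.10 with 0 of 10 called (limma, 0% of all genes, 0 of 10 and 8.09% of all genes at an unadjusted p under 0.05), which became -0.36 with 8 of 10 genes lower without the lymphocyte-rich mice. Averaged over activity, clodronate gave -0.04 with 0 of 10 called, against 0.205% of all genes, and 0 of 10 at an unadjusted p under 0.05, against 10.4%, and this median became -0.30 with 9 of 10 lower without those mice. Of all genes, 60.6% were lower for wheel running and 63.4% for clodronate in these averages without those mice. In both averages Mcm6 was then the 1 gene of 10 with an unadjusted limma p under 0.05, at -0.68 and -0.77, against 6.87% and 12.5% of all genes, so that 1 of 10 is near the background. Both Mcm6 estimates include the 2 clodronate-treated wheel-running mice left, at 12.7 and 2.94 CPM.

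The wider pathway was described from 4 lists: 24 genes of origin licensing and firing, 39 genes of synthesis at the fork, 34 genes of nucleotide synthesis and 27 genes of S phase control. None of these 124 genes passed limma's adjusted p in any comparison. With PBS liposomes, 107 of the 124 were lower in wheel-running mice, against 63.8% of all genes, with medians of -0.35, -0.32, -0.28 and -0.16 for the 4 lists in that order. The lowest estimates were Ccna2 (-1.28 ± 0.66, SE), the cyclin of S phase, and Ccne2 (-1.03 ± 0.48), a cyclin of the entry into S phase, and the highest were Rpa3 (0.63 ± 0.35), a subunit of the single-strand binding protein, and Wdhd1 (0.40 ± 0.51), an adaptor at the fork. Of 25 genes of mitosis, 25 were lower, with a median of -0.56. In control mice, clodronate liposomes went with lower estimates in 110 of the 124, against 65.4% of all genes, led by Mthfd2 (-1.03 ± 0.58), an enzyme of mitochondrial folate metabolism, and Gins2 (-1.01 ± 0.29, unadjusted p = 0.00183, limma adjusted p = 0.427), a subunit of the GINS complex that rides with the helicase. The highest were Adssl1 (0.69 ± 0.70), an enzyme of adenylate synthesis in muscle, and Dhodh (0.29 ± 0.25), an enzyme of pyrimidine synthesis. The list of mitosis had a median of -0.63 there, with 24 of 25 lower. Skeletal muscle content varied between these control mice, with 7 markers summing to 25.1 to 3159 CPM with PBS and 31.0 to 25106 CPM with clodronate liposomes. Its part in the estimate of Adssl1 was not tested.

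When the group with both wheel and clodronate was set against a single other group, more of these genes were higher than lower. This direction turned without the lymphocyte-rich mice. In the averages over liposomes and over activity, 81 and 83 of the 124 were lower with all mice, against 57.3% and 57.4% of all genes. Wheel-running against control mice with clodronate liposomes gave 81 of 124 higher (median 0.10), against 50.6% of all genes, among them 31 of the 39 genes of synthesis at the fork (median 0.17), with Wdhd1 (0.88 ± 0.56) and Cdt1 (0.85 ± 0.60), the loader of the Mcm ring, highest and the repressor E2f7 (-0.80 ± 0.47) and Ccne2 (-0.66 ± 0.53) lowest. Clodronate against PBS liposomes in wheel-running mice gave 78 of 124 higher (median 0.08), against 50.1% of all genes, among them 26 of the 39 genes at the fork (median 0.21), with E2f2 (1.13 ± 0.58), an activator of S phase genes, and Dck (0.95 ± 0.45), a kinase of nucleotide salvage, highest and Gins2 (-0.54 ± 0.29) and Rpa3 (-0.52 ± 0.37) lowest. The medians of the other 3 lists were -0.0034 to 0.08 in the first of these comparisons and 0.04 to 0.08 in the second, and mitosis genes had medians of 0.25 and 0.29. Without the 5 lymphocyte-rich mice, an alternative added after seeing the data, 45 and 34 of the 124 were higher (medians -0.16 and -0.19), while of all genes 44.2% and 41.1% were higher. Only wheel-running mice 1 and 2 of the group with clodronate liposomes were left in that fit. There the genes at the fork had medians of -0.29 and -0.22 and the mitosis genes -0.45 and -0.30. The named genes kept their sign without these mice, with smaller estimates for Wdhd1 (0.19), Cdt1 (0.24), E2f2 (0.64), Dck (0.04) and Rpa3 (-0.17) and lower ones for E2f7 (-1.20), Ccne2 (-0.92) and Gins2 (-0.80). In the comparisons of wheel running with PBS liposomes and of clodronate in control mice, 111 and 105 of the 124 were lower without those mice (medians -0.26 and -0.27), against 62.2% and 64.7% of all genes. Of the genes named for these comparisons, Rpa3 went from 0.63 to 0.31 and the others moved by less than 1.5 times.

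The levels of these genes went together over mice. After the group mean was removed from each gene, 45 of the 45 pairs of genes were positively correlated over the 22 mice, with a median Pearson r of 0.609 (0.0673 to 0.886). By permutation within groups, 32 pairs passed an adjusted p of 0.05 over the 45 pairs, and 37 did by Spearman's rho. Over all pairs of the 15138 genes tested, treated in the same way, 51.2% were positive with a median r of 0.009, 1.58% had an r at or above the median of the 10 genes, and 9.05% had an r at least as far from 0 as 0.472, the lowest r among the 32 pairs. The closest relations were those of the small reductase subunit with helicase genes. Mcm2 and Rrm2 had r = 0.886 (rho = 0.861, permutation p of 2e-05 for both) and Mcm3 and Rrm2 had r = 0.886 (rho = 0.919, permutation p = 1e-05 for both, the smallest that 100000 permutations can give). Mcm2 and Mcm3 followed, with r = 0.858 (rho = 0.844). Among the helicase genes 13 of 15 pairs passed, with a median r of 0.675.

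Mcm7 and Tyms were bound less tightly to the rest, with median r of 0.473 and 0.497 to the other genes. Mcm4 and Tyms had one of the weakest relations (r = 0.222, rho = 0.160, adjusted permutation p = 0.362 and 0.501). Pcna had a median r of 0.276 and passed with 1 of 9 genes, which rested on the mouse in which it was at the floor. Without that mouse its median r was 0.705 and 9 of 9 pairs passed. In the 17 mice with a lymphocyte marker score of 3 or less, the pairs had a median r of 0.664 with 33 of 45 passing, and the closest pair was Pcna and Rrm1 (r = 0.915, rho = 0.934, adjusted permutation p = 0.00072 for r). Over all gene pairs in these 17 mice the median r was 0.008, and 1.48% had an r at or above 0.664. An r at least as far from 0 as 0.514, the lowest among the 33 pairs, was found in 10.1%. When the 2 mice farthest from the median of the first gene were left out of each pair, the median r was 0.592 and 44 of 45 pairs stayed positive.

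**Figure D4:**
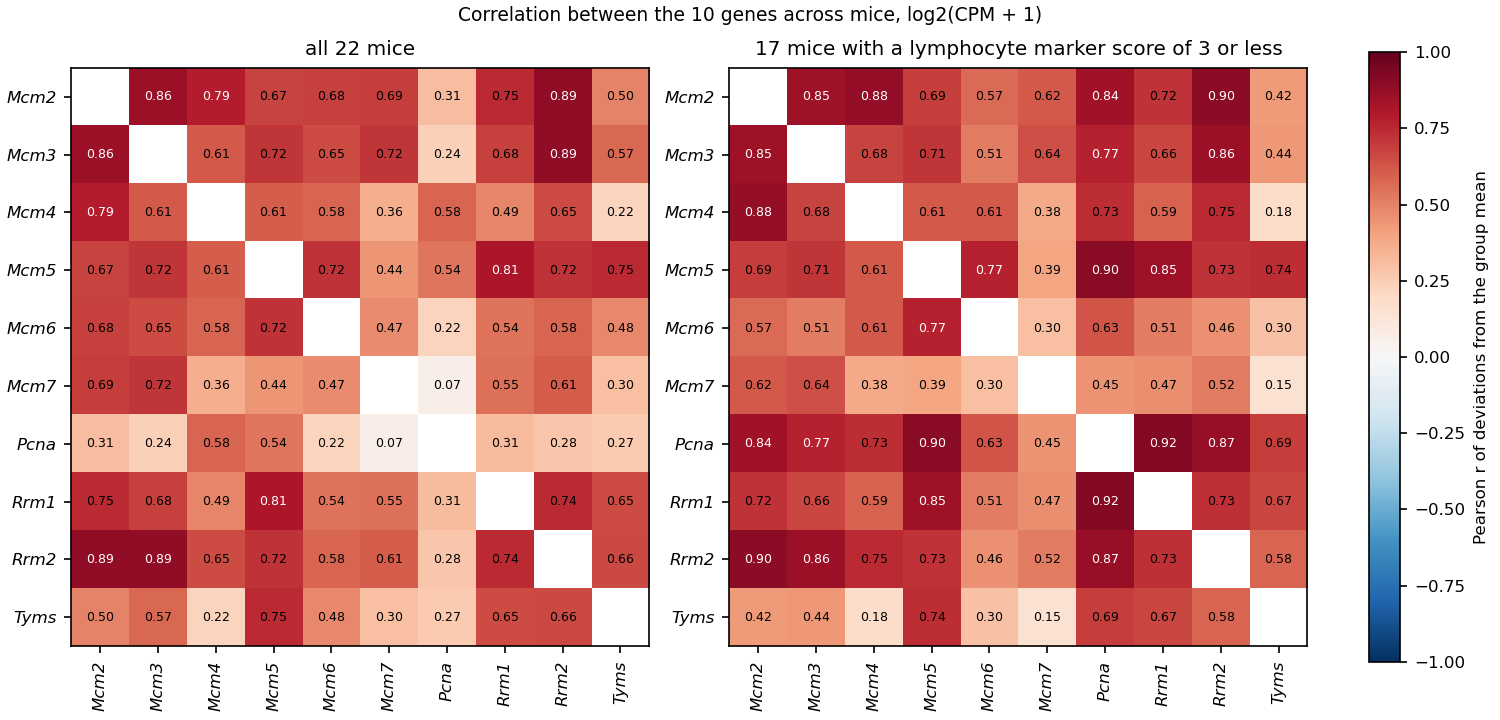
Pearson r between each pair of genes over mice, on log2(CPM + 1) after removal of the group means, in all 22 mice (left) and in the 17 mice with a lymphocyte marker score of 3 or less (right). The row of Pcna is pale in all mice and dark on the right, where the mouse with Pcna at the floor is left out.

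The levels of the genes overlapped between lymphocyte-rich and other mice, and the median of each gene was higher in the lymphocyte-rich mice. Rrm2 was 6.93 to 11.7 CPM (median 9.91) in the 5 lymphocyte-rich mice and ran from the floor to 21.8 CPM (median 2.29) in the other 17. Mcm3 was 26.2 to 43.9 CPM (median 35.6) against 3.86 to 38.4 CPM (median 15.1), and Mcm6 was 21.4 to 25.3 CPM (median 22.3) against 2.94 to 30.0 CPM (median 16.0). Low values of these 3 genes were found in the other mice, and the highest values of Rrm2, Mcm6 and Mcm2 were too. Rrm1 had nearly equal medians, 21.4 and 19.3 CPM.

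The genes most like the set were sought by Pearson r, over the 22 mice, with the mean of the 10 scaled profiles, as a description with no test. The 5 highest among 15128 other genes were Cd44, a receptor for hyaluronan (r = 0.955), Cenpe, a kinetochore motor (0.935), Smc2, a core subunit of condensin (0.934), Kif11, the motor that separates the spindle poles (0.929), and Tpx2, a spindle assembly factor (0.920). Cd44 had 16.9 to 113 CPM over the mice. Of the 25 genes of mitosis, 25 had r over 0.5, as 8.85% of all genes did, with a median of 0.867 against 0.0543 over all genes, and 17 were among the 100 most alike. They were closer to the 10 genes than other replication genes were, with medians of 0.560 for synthesis at the fork, 0.474 for S phase control, 0.406 for origin licensing and 0.399 for nucleotide synthesis. Uhrf1, which brings maintenance methylation to new DNA (0.917), Tk1, thymidine kinase (0.901), and Cdt1 (0.850) were the highest of their lists.

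Markers of cell types were less alike to the set than genes of mitosis, of synthesis at the fork and of S phase control. The median r was 0.401 for B cell, 0.440 for T cell and 0.382 for macrophage markers, and it was negative for adipocyte (-0.485) and endothelial (-0.471) markers. The T cell median was above those of origin licensing (0.406) and nucleotide synthesis (0.399), and the B cell median was above that of nucleotide synthesis. In the 17 lymphocyte-poor mice the B cell median was 0.0298, the T cell median 0.265 and the macrophage median 0.291, while that of the mitosis genes was 0.905 and that of adipocyte markers -0.437. The points of these relations share libraries and read depth, and a tissue with a larger share of one cell type has smaller shares of the others in CPM.

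**Figure D5:**
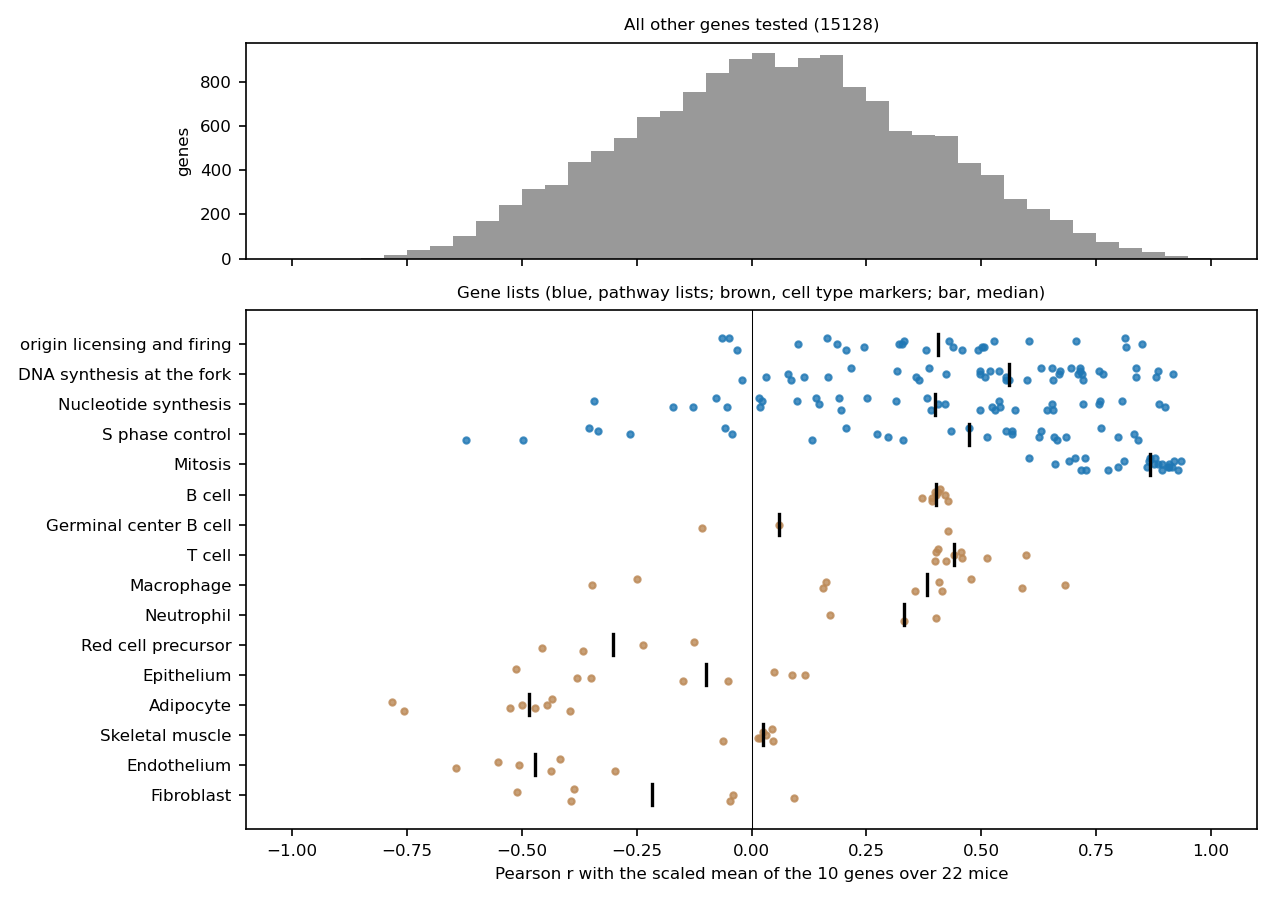
Pearson r of other genes with the scaled mean of the 10 genes over 22 mice (horizontal axis): a histogram of all 15128 other genes tested (above) and single genes of each list with the median as a bar (below). Genes of mitosis lie at the right edge (median 0.867), and adipocyte and endothelial markers lie left of 0.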

How the data were processed

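RNA from 22 mice was read with the QuantSeq 3′ FWD kit, mapped to GRCm38 with STAR 2.5.3a per the submitters' processing notes, and deposited per mouse by the authors as a signal in CPM, with every value below 1 set to 1. Counting options, strand included, are not given in the sources used here. The total behind CPM held all reads, and 4 rows that name no gene (unmapped, multimapping, ambiguous and outside genes), 35.4 to 42.6% of the reads, were kept out of tests. Of the values above the floor 100% were whole multiples of 1 read, within 0.1 read, which gave the depth. Reads of genes at the floor, 73.4 to 76.0% of genes per mouse, are lost, so no count test was run. Of symbols listed more than once, 110 extra rows were dropped in favour of the row with the highest mean.

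Groups and replicate numbers came from the labels. The 15138 genes that exceeded the floor in 5 or more mice were tested on log2(CPM + 1) with limma 3.58.1 in R 4.3.3 (4 group means, eBayes with a variance trend, two-sided, Benjamini-Hochberg, adjusted p of 0.05). Fold changes are on this scale, which understates changes of low genes. Correlations used two-sided permutations within groups (100000) in Python 3.11.15 with numpy 2.4.6 and scipy 1.17.1. Both steps were tested on simulated data. Promoters came from RefSeq, coordinates from GENCODE M21. The text names all 10 genes, in each comparison of groups the 2 highest and 2 lowest genes of the pathway lists, and the 5 genes most alike, beside Uhrf1, Tk1 and Cdt1, chosen as the highest of their lists after values were seen. The 10 genes and the lists were chosen with earlier results of these data known. Alternatives were other pseudocounts (0.1, 5, none), filters and scalings, only the groups compared, no variance trend, the replicate number as a block, the lymphocyte score as a covariate, and leaving out the 5 lymphocyte-rich mice or each mouse.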

Additional observations from a re-analysis of the deposited data

Results flagged for a closer look

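Each gene, and the lymphocyte marker score, was examined in each of the 4 groups for a single mouse far from the others. Of these 44 groups of values, chance would set apart about 1 in 20, or 2.2, if the values were normally distributed. Values set to the floor and the marker score, which fell into separate ranges, depart from that. The genes also share mice, so the flags are not independent. On the log2(CPM + 1) scale 5 values of the replication genes stood apart. Mcm3 (2.28, next 4.22) and Mcm5 (2.25, next 3.54) were low in control mouse 5 with PBS liposomes, in which Rrm2 and Tyms were at the floor. Mcm4 was high in wheel-running mouse 4 with PBS liposomes (4.66, next 3.41). Pcna was at the floor in wheel-running mouse 3 with PBS liposomes (1.00, next 3.14). Tyms was high in control mouse 3 with clodronate liposomes (3.67, next 2.43), the mouse with the highest Rrm2. The lymphocyte marker score stood apart in control mouse 2 (3.98, next 1.32) and in wheel-running mouse 3 (4.29, next 1.27) with PBS liposomes.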

How the results depend on the processing

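None of the 10 genes was called by limma in any of the 7 comparisons under any alternative run, leave-one-out included. The median change of the genes kept its direction in the comparisons of wheel running with PBS liposomes (-0.41 to -0.22) and of clodronate in control mice (-0.38 to -0.17). It turned with the handling of the lymphocyte-rich mice in the other pair of group comparisons: for wheel running with clodronate liposomes the median was -0.54 with the marker score as a covariate and -0.48 without those mice, against 0.34 with all mice, and for clodronate in wheel-running mice it was -0.18 and -0.14, against 0.44. Mcm3 in the last comparison turned to -0.0815 and -0.118. The cause was not tested. Leaving out 1 mouse at a time gave medians of -0.55 (without wheel-running mouse 4) to -0.25 (without control mouse 6) for wheel running with PBS liposomes, 0.12 (without control mouse 4) to 0.50 (without wheel-running mouse 1) with clodronate liposomes, -0.58 to -0.08 (without clodronate-treated control mouse 3 or 4) for clodronate in control mice and 0.33 to 0.66 in wheel-running mice (without wheel-running mouse 6 or 4 with PBS liposomes). The medians averaged over liposomes (-0.21 to 0.05) and over activity (-0.21 to 0.11) crossed 0, with 3 and 7 of 22 such medians positive; their highest values were without clodronate-treated control mouse 3 and clodronate-treated wheel-running mouse 1. With the marker score as a covariate they were -0.40 and -0.25. The Tyms change turned in 2 of 22 such fits in each of 2 comparisons (-0.14 to 0.33 for wheel running with PBS liposomes, -0.0844 to 0.345 for clodronate in control mice). The number of gene pairs passing was 28 to 42 of 45 when 1 mouse was left out (42 without wheel-running mouse 3 with PBS liposomes), and 29 to 33 under the other alternatives.

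Counts over all genes depended more on single settings. The 31 genes called for clodronate averaged over activity became 54 when genes with a mean under 5 CPM were dropped and 20 without the variance trend. With scaling to assigned reads and to the upper quartile they became 16 and 12. They were 28 with the lymphocyte score as a covariate and 0 without the lymphocyte-rich mice. Leaving out clodronate-treated control mouse 3 or 1 gave 9 or 146. Without lymphocyte-rich mice the single calls for wheel running with clodronate and for clodronate in wheel-running mice became 12 and 14, and reached 236 and 51 without clodronate-treated wheel-running mouse 2. With the lymphocyte score as a covariate both were 0. In control mice clodronate gave up to 38 calls, without clodronate-treated control mouse 1. Upper-quartile scaling moved the median of all genes for the interaction from 0.09 to -0.01 and that of the 10 genes from 0.56 to 0.45. The filter was removed only down to genes above the floor in 1 mouse or more. The count test was not run.

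Replicate numbers are shared across groups by different mice, and the deviations of same-numbered mice had mean correlations of -0.08 (PBS) and 0.18 (clodronate) between activities and 0.10 (control) and 0.13 (wheel-running mice) between liposomes, with 1 of 6, 3 of 5, 2 of 5 and 4 of 5 pairs over 0.1, so the numbers were not taken as pairing the mice. With the replicate block, 0 of 10 genes were called in each comparison, the Mcm5 change for wheel running with PBS liposomes was -1.03, and the 31 calls above became 11.

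The floor of 1 CPM limits Rrm2 in 4 mice and Tyms and Pcna in 1 mouse each. A value there stands for anything up to 13 to 20 reads. Above the floor, Pcna had 88 to 261 reads.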
